A study of Homo sapiens with 121 samples.

Results

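The 7 genes described here are the transcription factors POU5F1 (also called OCT4), SOX2, NANOG and SALL4, the paired RNA-binding proteins LIN28A and LIN28B, and the RNA-binding protein L1TD1. They were chosen by name as core pluripotency factors with the LIN28 pair, and are 7 of the 25610 genes read from the expression table. The cells were single human embryonic stem cells (hESCs) of the line WA26, grown without feeder cells in E8 medium on Matrigel and picked by hand under a microscope. In scT&R-seq the polyadenylated RNA and the genomic DNA of the same cell are separated, so that each of the 121 cells has a transcriptome and a telomere length. Telomere length is a T/R ratio, the qPCR signal of telomere repeats (T) over that of Alu repeats (R). All cells carried the same unmodified genotype, and none was treated. The labels put 81 cells in a long, 25 in a medium and 15 in a short telomere group, which the methods separate at T/R ratios of 1 and 0.4. All cells came from 1 line, and no separate cultures or batches are named. Each telomere group therefore counts as 1 sample, values are given as a spread across cells, and no p-value was computed.

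POU5F1 and SOX2 bind DNA side by side and, with NANOG, switch on their own genes and a broad set of genes of the undifferentiated state, while SALL4 is a zinc finger factor of the same network. LIN28A and LIN28B bind the loop of let-7 microRNA precursors and block their maturation, and mature let-7 in turn represses mRNAs that carry its target sequence, those of the LIN28 genes among them. L1TD1 derives from a protein of the LINE-1 retrotransposon, is abundant in undifferentiated human cells and has been found together with LIN28A in ribonucleoprotein particles.

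The sequences that join these genes to let-7 are shown first, since let-7 precursors are the best known targets of LIN28A and LIN28B. In the let-7a-1 and let-7g hairpins (RefSeq, build GRCh38.p14, chr9:94175957-94176036 on the plus strand and chr3:52268278-52268361 on the minus strand) the capitals mark GGAG, the letters that LIN28 proteins recognise. In the mature let-7a-5p and let-7g-5p the capitals mark the seed, bases 2 to 8, which both share.
let-7a-1 hairpin: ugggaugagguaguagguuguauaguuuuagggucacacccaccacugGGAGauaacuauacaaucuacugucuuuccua
let-7g hairpin: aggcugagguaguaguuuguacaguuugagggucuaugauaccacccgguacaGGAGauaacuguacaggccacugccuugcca
let-7a-5p: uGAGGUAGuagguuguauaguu
let-7g-5p: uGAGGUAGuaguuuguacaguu

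GGAG was found in 9 of 11 let-7 hairpins, beside 43.4% of all 1562 human hairpins, so the letters alone are common. The match to the let-7 seed, CTACCTC, was searched on the coding strand of the 3′ UTR of the canonical protein-coding transcript of each gene in the GRCh37 annotation, the build of the expression table. It was found in 9.73% of 19064 such UTRs. LIN28B held 4 matches in a UTR of 4549 bases, and 0.163% of the 4897 UTRs of 0.5 to 2 times that length held as many. LIN28A held 1 match in 3270 bases, and SALL4 held 1 in 1934 bases, where 16.8% and 11.7% of UTRs of similar length held at least 1. The UTRs of POU5F1, SOX2, NANOG and L1TD1 held no match. The 6 matches are printed as transcribed, with the seed match in capitals.
LIN28A, chr1:26753840-26753861, plus strand: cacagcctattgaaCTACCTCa
LIN28B, chr6:105526688-105526709, plus strand: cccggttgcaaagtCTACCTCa
LIN28B, chr6:105529115-105529136, plus strand: actgatgatagtaaCTACCTCt
LIN28B, chr6:105529297-105529318, plus strand: tttacagcaaaaggCTACCTCa
LIN28B, chr6:105530736-105530757, plus strand: aatgatggtgttgaCTACCTCt
SALL4, chr20:50399462-50399483, minus strand: aagctttaatttatCTACCTCa

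Among the core factors, the NANOG promoter held the adjoining SOX and OCT letters through which SOX2 and POU5F1 bind together. The table of RefSeq promoters (GRCh38.p14) held NANOG, SOX2, LIN28B and L1TD1. On both strands, the composite of CATTGT, any 1 base and ATGC was found in 33 of 35116 promoters (0.094%), and of the 4 genes only in NANOG, 117 to 107 bases before its start. The octamer letters ATGCAAA, which can overlap that element, were found in 4.46% of promoters, those of NANOG and SOX2 included. The SOX letters CATTGT were found in 10.8% of promoters, those of NANOG and LIN28B included. The 250 bases before the NANOG start (chr12:7789152-7789401, plus strand) are printed with the composite element in capitals. Whether the element has a part in the levels described below was not tested.
NANOG promoter: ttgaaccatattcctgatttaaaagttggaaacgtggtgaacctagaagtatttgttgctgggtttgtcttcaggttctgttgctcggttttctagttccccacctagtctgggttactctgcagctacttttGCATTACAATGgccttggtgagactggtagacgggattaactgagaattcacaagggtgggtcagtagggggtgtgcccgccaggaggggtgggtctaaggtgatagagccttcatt

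The table gives values named TPM, a unit that by definition is a share of each cell's transcripts corrected for transcript length. The program that made them is not settled, so levels and orders between genes hold as far as that name does. A gene was counted as detected in a cell above TPM 1. The cells differed widely in how many genes were detected, from 2030 to 11515. They are described as 68 gene-rich cells, with more than 8000 detected genes (51 long, 14 medium and 3 short), and 53 gene-poor cells (30 long, 11 medium and 12 short). This border was chosen with the values known. The TPM of a gene depends on the shares of all other genes in the cell. Depth and counting error are unknown, because read numbers cannot be had from TPM. Other markers of hESCs were high as well, and all 9 of a list, such as PODXL, EPCAM and CDH1, averaged 10 TPM or more. Markers of other cell types were near 0 in the median cell, apart from some fibroblast genes given below. The median summed TPM was 0 in each telomere group for 6 definitive endoderm genes, and between 0.45 and 7.96 for 6 mesoderm genes, between 1.85 and 2.54 for 6 neural ectoderm genes and between 0.21 and 1.66 for 6 trophoblast genes. The mesoderm median of 7.96 was that of the short group, and single cells reached a sum of 82.52, 103.8, 239.2 and 206.6 TPM for the 4 lists. Of 7 fibroblast genes, LUM and COL3A1 passed TPM 1 in no cell, DCN in 1 and POSTN in 3 cells. COL1A1 passed it in 21 cells and COL1A2 in 77 of 121 cells (median 4.42, highest 195.2 TPM). The list's summed median, between 111.5 and 140.5 TPM in the 3 groups, came mostly from THY1 (median 120.9 TPM), which hESCs also express.

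POU5F1 (chr6:31132114-31148508, minus strand) was the most abundant of the 7 genes and was detected in every cell. Its level was 75.83 TPM in the lowest cell, 1107 in the median cell and 2135 in the highest, and its mean of 1074 ± 414 TPM (SD, n = 121 cells) ranked 170 among all genes. It was the highest of the 7 genes in 109 of 121 cells, and made up 54.8% of their summed TPM in the median cell. POU5F1 was above L1TD1 in 111 cells, above NANOG and SOX2 in 120 cells each, and above LIN28B and SALL4 in all 121.

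NANOG (chr12:7940390-7951742, plus strand), a homeodomain factor that sustains self-renewal, varied more from cell to cell. It was listed at 0 in 1 cell, with a median of 189.7 and a highest value of 701.55 TPM, a mean of 191.1 ± 123.3 TPM (n = 121), and detection in 116 cells. SOX2 (chr3:181429713-181432224, plus strand, inside the span of the non-coding SOX2-OT on the same strand) was lower, at a median of 58.05 and a highest value of 223.5 TPM, with a mean of 61.5 ± 42.0 TPM. SOX2 was listed at 0 in 4 cells and detected in 113. The SOX2-OT row had a mean of 3.15 TPM and passed TPM 1 in 40 cells, so the row for SOX2 was the far larger of the overlapping pair.

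SALL4 (chr20:50398870-50419060, minus strand) was the least abundant and the least often detected of the 7. It was listed at 0 in 11 cells, reached a median of 20.65 and a highest value of 215.1 TPM, and had a mean of 24.9 ± 30.0 TPM, larger in spread than in mean. SALL4 was the lowest of the 7 genes in 73 of 121 cells.

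LIN28A (chr1:26737308-26756219, plus strand) was detected in every cell and LIN28B (chr6:105384491-105531207, plus strand) was not. LIN28A had a lowest value of 3.24, a median of 212.4 and a highest value of 612.8 TPM, with a mean of 210.7 ± 102.4 TPM. LIN28B was listed at 0 in 7 cells, had a median of 31.56 and a highest value of 183.8 TPM, with a mean of 36.2 ± 30.0 TPM, and was detected in 109 cells. LIN28A was thus the main LIN28 transcript in nearly every cell. It made up a median of 86.3% of the TPM of the pair, and LIN28B was the higher of them in 5 of 121 cells, all gene-poor.

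L1TD1 (chr1:62660521-62678000, plus strand) was second to POU5F1 and was detected in every cell, at a lowest value of 6.71, a median of 321.0 and a highest value of 1074 TPM (mean 356.2 ± 164.4). The order of the means was POU5F1, L1TD1, LIN28A, NANOG, SOX2, LIN28B and SALL4. Within single cells, LIN28A and NANOG could not be ordered, since LIN28A was the higher in 71 of 121 cells, and their mean difference of 0.53 on the log2(TPM + 1) scale was below its SD of 1.99. For 4 other pairs of neighbours in this order the mean difference was also below its SD, though the 1st gene was the higher in most cells. These were L1TD1 over LIN28A (0.83, SD 1.30, 94 cells) and NANOG over SOX2 (1.60, SD 2.21, 103 cells). The others were SOX2 over LIN28B (0.85, SD 2.18, 88 cells) and LIN28B over SALL4 (0.87, SD 2.18, 81 cells). Of pairs farther apart in the order, L1TD1 over NANOG (1.36, SD 2.05, 103 cells) and SOX2 over SALL4 (1.72, SD 2.21, 103 cells) were below their SD too. Of the steps between neighbours in this order, that from POU5F1 to L1TD1 (1.59, SD 1.12) was the one larger than its SD across all 121 cells. In gene-rich cells the steps from NANOG to SOX2 (1.70, SD 0.83) and from SOX2 to LIN28B (0.99, SD 0.98) were larger as well. Those from L1TD1 to LIN28A, LIN28A to NANOG and LIN28B to SALL4 stayed below their SD there.

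**Figure D1:**
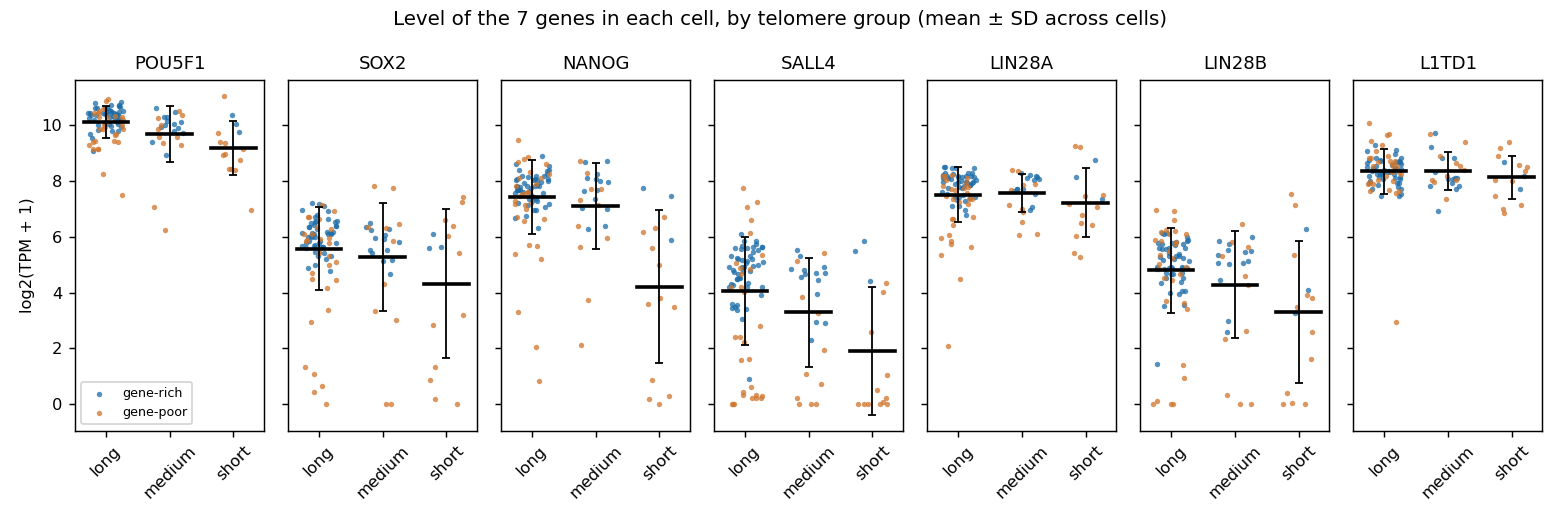
Each point is 1 of 121 cells, with log2(TPM + 1) on the vertical axis and the telomere group on the horizontal axis, 1 panel for each gene, blue for gene-rich and orange for gene-poor cells, and black bars for the mean ± SD across the cells of a group. POU5F1, LIN28A and L1TD1 have no cell at 0, while the points of SOX2, NANOG, SALL4 and LIN28B at or below TPM 1 are gene-poor cells except for 1 SALL4 value.

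Relative to genes of similar abundance, the 7 genes were rather even across cells. The coefficient of variation (CV, the SD over the mean) was 0.386 for POU5F1, 0.462 for L1TD1 and 0.486 for LIN28A, and 0.645 for NANOG, 0.682 for SOX2, 0.830 for LIN28B and 1.20 for SALL4. Among genes whose mean was 0.5 to 2 times that of the member, 3.37% had a lower CV than LIN28A, 5.46% than L1TD1, 6.18% than SOX2, 11.1% than LIN28B, 14.4% than POU5F1, 21.8% than NANOG and 37.3% than SALL4. NANOG and SALL4 were the most variable for their abundance. In the gene-rich cells the CVs were smaller, from 0.234 for POU5F1 to 0.517 for SALL4, and NANOG (39.2% of similar genes lower) and L1TD1 (41.6%) were then the closest to the middle of their abundance class.

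Detection was complete for 3 genes and partial for 4. POU5F1, LIN28A and L1TD1 were detected in all 121 cells, as were 6.34% of the 6213 genes that averaged 10 TPM or more. Detection in at least 90% of cells was reached by 6 of the 7 genes, SALL4 being the exception at 79.3%, beside 31.3% of the 6213 genes. NANOG was detected in 95.9%, SOX2 in 93.4% and LIN28B in 90.1% of cells. Missing values lay almost wholly in gene-poor cells. All 8 cells without SOX2, all 5 without NANOG, all 12 without LIN28B and 24 of 25 without SALL4 were gene-poor, and the gene-rich exception had SALL4 at 0.89 TPM. The median number of detected genes was 3187 in cells without NANOG, 5042 without SOX2, 5356 without LIN28B and 5617 without SALL4, beside 8928 over all cells.

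All 7 genes were detected together in 88 of 121 cells (72.7%), namely 67 of 68 gene-rich cells and 21 of 53 gene-poor cells. By telomere group these were 64 of 81 long, 19 of 25 medium and 5 of 15 short telomere cells. Within the gene-rich cells, 50 of 51 long, all 14 medium and all 3 short telomere cells had the full set. Within the gene-poor cells, 14 of 30 long, 5 of 11 medium and 2 of 12 short telomere cells had it. The most frequent gap was SALL4 alone, in 15 cells, followed by LIN28B with SALL4 in 4 cells and LIN28B alone in 3. NANOG was in no cell the sole missing gene.

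In 4 cells, all gene-poor, only 4 of the 7 genes were detected. In these cells a transcript that was absent cannot be told apart from one that was not captured. A short telomere cell with 2030 detected genes had POU5F1 at 332.4, LIN28A at 180.2, L1TD1 at 377.1 and SOX2 at 6.10 TPM, with NANOG at 0.13, LIN28B at 0.04 and SALL4 listed at 0. The short telomere cells with 2577 and 3187 detected genes had POU5F1 at 489.1 and 125.3 TPM and NANOG at 0.23 and 0.85 TPM. The 4th, a medium telomere cell with 4754 detected genes, had NANOG at 210.2 and POU5F1 at 1474 TPM but SOX2, LIN28B and SALL4 listed at 0. POU5F1, LIN28A and L1TD1 therefore stayed above 100 TPM in all 4 cells, while the gaps among the other genes differed between them. Over the 13 cells with 5 or fewer of the genes, the median was 832.0 TPM for POU5F1, 152.5 for LIN28A and 262.6 for L1TD1, beside 1173, 239.1 and 317.7 in the 88 cells with all 7.

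**Figure D2:**
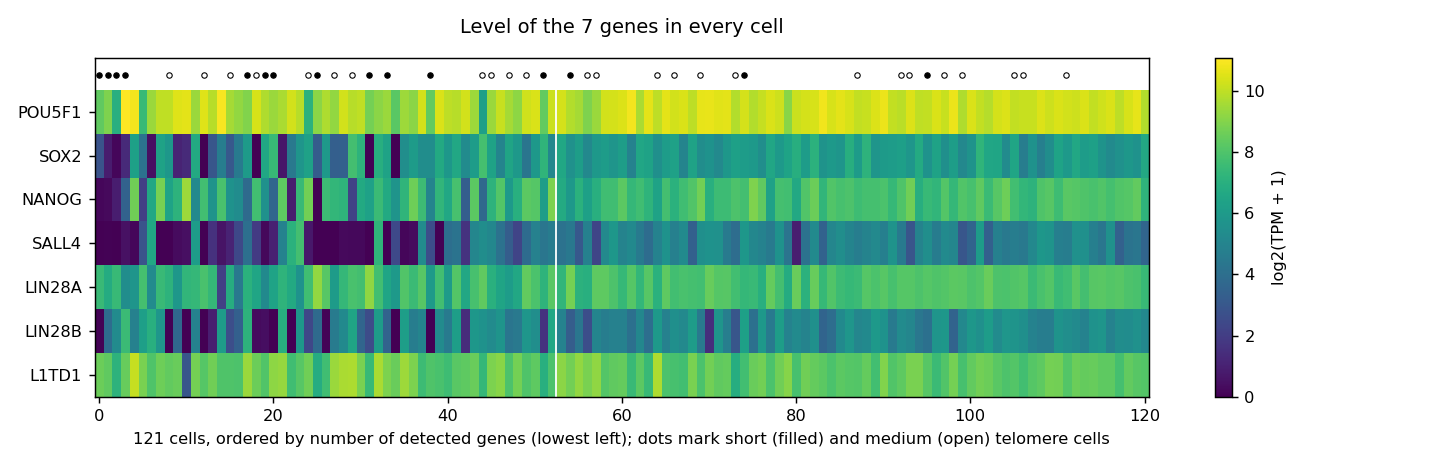
Rows are the 7 genes and columns the 121 cells, ordered from the fewest detected genes on the left to the most on the right, with colour for log2(TPM + 1), a white line between the 53 gene-poor and the 68 gene-rich cells, and dots above for short (filled) and medium (open) telomere cells. Almost all dark cells, at or near 0, lie left of the line in the rows of SOX2, NANOG, SALL4 and LIN28B. To its right are a SALL4 value of 0.89 TPM and a LIN28B value of 1.74 TPM. Of the 15 short telomere cells, 12 lie left of the line.

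Single extreme cells did not carry the whole set up or down. The cell with the most POU5F1 (2135 TPM, short, 3481 detected genes) was also the cell with the most LIN28B (183.8 TPM), and had NANOG at 10.20, SOX2 at 1.50 and SALL4 at 0.43 TPM. The cell with the least POU5F1 (75.83 TPM, medium, 6908 detected genes) was the cell with the most SOX2 (223.5 TPM), with LIN28A at 331.0 TPM and NANOG at 12.21 TPM. The cell with the most NANOG (701.55 TPM, long, 4366 detected genes) was the cell with the least L1TD1 (6.71 TPM) and had LIN28B listed at 0. Each of these 3 cells was gene-poor.

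Next, the genes were compared between telomere groups, the comparison for which the study was designed. On the log2(TPM + 1) scale, NANOG and SALL4 were higher in long than in short telomere cells by the most, SOX2 and LIN28B by amounts that depended on the measure, and LIN28A and L1TD1 by the least. NANOG stood apart. It was 0.78, 205.2 and 701.55 TPM in the lowest, median and highest long telomere cell, 3.37, 199.1 and 422.3 TPM in the medium group, and 0, 30.61 and 216.2 TPM in the short group. The long and short groups overlapped, but when each long cell was set against each short cell, NANOG was higher in the long one in 89.8% of cases. The difference of means was 3.21 (7.43 ± 1.32, n = 81, against 4.21 ± 2.73, n = 15), larger than the SD of either group and above that of 98.5% of the 6213 genes. NANOG was undetected in 4 of 15 short, 0 of 25 medium and 1 of 81 long telomere cells.

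The other differences were read against a shift that most genes shared. Over the 6213 genes the median long minus short difference was 1.40, and 66.5% of them were at least 2-fold higher in long cells (a difference of 1 or more), while 1.71% were at least 2-fold higher in short cells. Short telomere cells had a median of 5620 detected genes and long telomere cells 9165, and the part of this in the differences was not tested. Of the 7 genes 4 passed the 2-fold mark, a share close to that background, and their median of 1.25 was below the median of all genes. SALL4 differed by 2.16 (medians of 24.20 and 0.43 TPM), LIN28B by 1.50 (35.24 and 10.34 TPM) and SOX2 by 1.25 (61.51 and 48.01 TPM). These 3 differences were smaller than the SD of the short group, which was 2.28, 2.55 and 2.66. In pairings of a long with a short cell the long one was higher in 76.2% for SALL4, 69.7% for LIN28B and 60.5% for SOX2. As a log2 ratio of mean TPM the difference was 0.25 for SOX2 and 0.16 for LIN28B, and that of SOX2 was 0.35 between medians over cells and 0.33 without the 11 cells of fewest detected genes, so that its 2-fold mark was lost in each.

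POU5F1 differed by 0.93, less than the SD of 0.98 in the short group. Its median was 1249 TPM in the long group, 989.4 in the medium and 566.8 in the short one, with the long cell higher in 82.1% of pairings. LIN28A (0.29, medians of 226.8 and 143.7 TPM) and L1TD1 (0.22, medians of 337.5 and 292.3 TPM) differed least, by less than the SD of either group, and 13.6% and 12.3% of the 6213 genes had a smaller difference. After rescaling every cell by the median ratio over 602 genes listed above 0 in every cell, which lowered the median over all genes from 1.40 to 1.02, LIN28A and L1TD1 were lower in long than in short telomere cells, by -0.47 and -0.55, and POU5F1 was higher by only 0.16. NANOG (2.66) and SALL4 (1.92) kept their direction and stayed above that median.

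Within the gene-rich cells, where 3 short telomere cells remained, 0 of the 7 genes passed the 2-fold mark, beside 12.7% of genes higher in long and 6.94% higher in short cells. The 3 short telomere cells had NANOG at 58.96, 216.2 and 175.4 TPM, beside a median of 218.3 TPM over all gene-rich cells. The difference was 0.69 for NANOG, 0.49 for LIN28B, 0.27 for SOX2, 0.23 for POU5F1 and 0.15 for L1TD1, with a median over all genes of 0.04. It was -0.19 for LIN28A and -0.52 for SALL4, whose 3 short cells had 20.65, 56.64 and 43.85 TPM. Each of these values rests on 3 cells on the short side.

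Within the gene-poor cells, 30 long and 12 short, the NANOG difference was 3.40 (6.90 ± 1.97 against 3.50 ± 2.57), and the long cell was higher in 88.3% of pairings. NANOG, SALL4 (1.86) and LIN28B (1.42) were the 3 members past the 2-fold mark, beside 51.0% of genes higher in long and 3.90% higher in short cells. POU5F1 differed by 0.85, SOX2 by 0.79, L1TD1 by 0.24 and LIN28A by -0.12, against a median of 1.03 over all genes. The NANOG difference was again above that of 98.2% of genes, and was thus as large among the gene-poor cells as over all cells. Long and short gene-poor cells were not matched in detected genes. The cells with 2030, 2577, 3187 and 3481 detected genes were all short, with NANOG at 0.13, 0.23, 0.85 and 10.20 TPM. No long cell had fewer than 4002. Leaving out the 11 cells with fewer than 4464 detected genes brought the NANOG difference over all cells to 2.15, with a median over all genes of 1.17.

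Long and medium telomere cells were close. None of the 7 genes passed the 2-fold mark between them, beside 1.75% of genes higher in long and 0.660% higher in medium cells. The largest differences were 0.77 for SALL4 and 0.52 for LIN28B, and NANOG differed by 0.31. Between medium and short telomere cells NANOG differed by 2.90 and SALL4 by 1.39, the only 2 members past the mark, beside 59.9% of genes higher in medium and 2.01% higher in short cells. The step in NANOG thus lay between the medium and the short group.

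**Figure D3:**
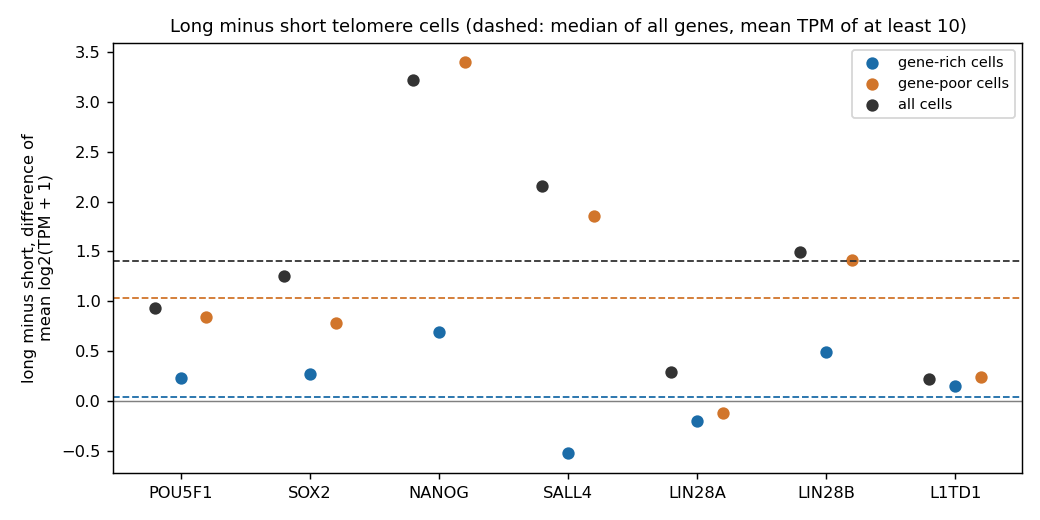
The vertical axis is the difference of mean log2(TPM + 1) between long and short telomere cells for each gene on the horizontal axis, in all cells (black), gene-rich cells (blue, 3 short cells) and gene-poor cells (orange), and dashed lines are the medians over 6213 genes in the same cells. NANOG lies at 3.21 and 3.40 over all and gene-poor cells, far above the dashed lines, and at 0.69 in gene-rich cells.

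The T/R ratio of each cell gives the same question without groups. Over the 121 cells, Pearson's r between T/R ratio and TPM was 0.291 for NANOG (Spearman's rho 0.309) and 0.270 for POU5F1 (rho 0.319), then 0.206 for SALL4, 0.132 for L1TD1, 0.063 for SOX2, 0.033 for LIN28B and -0.029 for LIN28A, with a median over all genes of 0.042. Of the 6213 genes, 97.3% had a lower r than NANOG and 96.1% a lower r than POU5F1. With the 2 most extreme T/R ratios left out, r was 0.388 for NANOG and 0.334 for POU5F1. These coefficients describe cells of 1 line that share library preparation and differ in their number of detected genes. Partial correlation with detected genes held constant gave 0.288 for NANOG and 0.267 for POU5F1. Without the 11 cells of fewest detected genes, r was lower for NANOG, at 0.153, and 0.251 for POU5F1, with a median over all genes of 0.037.

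NANOG and POU5F1 parted when the cells were divided. In gene-rich cells (n = 68) r was 0.368 for POU5F1 (rho 0.364), higher than in 99.6% of genes, and 0.088 for NANOG (rho 0.107). In gene-poor cells (n = 53) r was 0.381 for NANOG (rho 0.485) and 0.253 for POU5F1 (rho 0.329). The difference between the genes was not tested. Within the long telomere group alone (n = 81) r was 0.00722 for NANOG and -0.048 for POU5F1, and within the medium (n = 25) and short (n = 15) groups r was 0.478 and 0.610 for NANOG and 0.000994 and -0.069 for POU5F1. The medians over all genes were 0.000558, 0.049 and 0.171 in the long, medium and short groups. Among short cells, log2(TPM + 1) of NANOG had an r of 0.831 with the number of detected genes, beside a median of 0.432 over all genes. The part of this in the value of 0.610 was not tested. After the rescaling by 602 genes r was 0.199 for NANOG and 0.048 for POU5F1, with a median over all genes of -0.012.

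**Figure D4:**
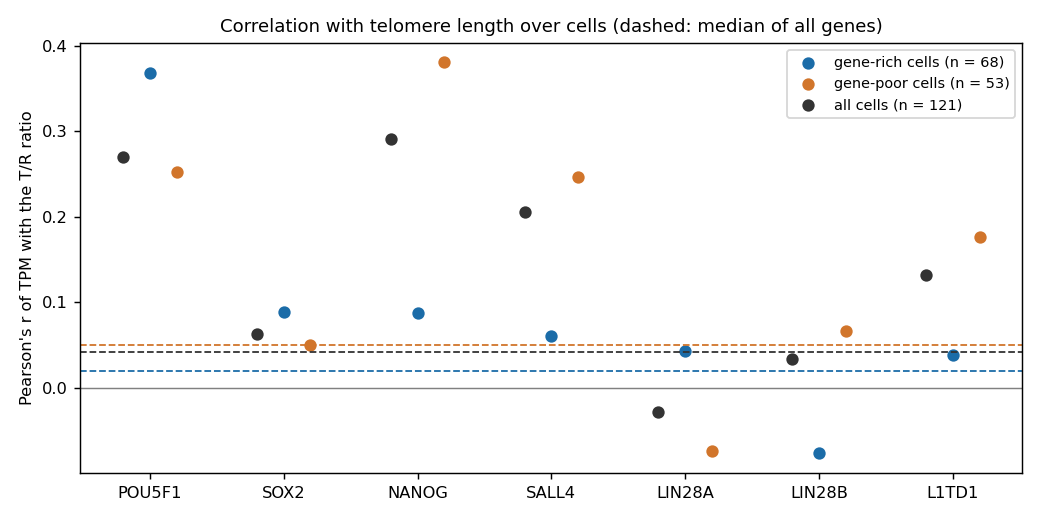
The vertical axis is Pearson's r between TPM and the T/R ratio over cells for each gene on the horizontal axis, in all cells (black, n = 121), gene-rich cells (blue, n = 68) and gene-poor cells (orange, n = 53), and dashed lines are the medians over all genes. POU5F1 is highest in gene-rich cells (0.368) and NANOG in gene-poor cells (0.381), and LIN28A lies between -0.073 and 0.043.

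Finally, the genes were compared with each other over cells. On log2(TPM + 1), the 21 pairs had a median r of 0.245 over all cells (range -0.105 to 0.493), beside 0.181 over all pairs of the 6213 genes. POU5F1 and NANOG were the closest pair, with an r of 0.493 (rho 0.417), and NANOG ranked 66 among the 6212 other genes by its r with POU5F1. LIN28B with SALL4 (0.383), SOX2 with SALL4 (0.359) and NANOG with SALL4 (0.336) followed, while LIN28A with L1TD1 was the lowest pair (-0.105). All cells share the axis of detected genes, with which r was 0.618 for SALL4, 0.550 for NANOG, 0.521 for SOX2 and 0.490 for LIN28A, and -0.015 for L1TD1, beside a median of 0.422 over all genes. Given the number of detected genes, the median over the 21 pairs was -0.00607, and POU5F1 with NANOG kept 0.344.

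Within the gene-rich cells the 7 genes did not move as a set. The median of the 21 pairs was -0.013, beside 0.015 over all pairs of genes, of which 3.43% had an r of at least 0.3, and 10 of the 21 pairs were above 0. NANOG with LIN28B was the closest pair (0.355, rho 0.288), followed by POU5F1 with LIN28A (0.307), POU5F1 with SALL4 (0.306) and POU5F1 with NANOG (0.245). L1TD1 ran against POU5F1 (-0.289) and LIN28A (-0.251). Within the gene-poor cells the median was 0.043, beside 0.093 over all pairs of genes, and POU5F1 with NANOG was again the closest pair (0.391, rho 0.430), with LIN28B and SALL4 at 0.329 and LIN28B and L1TD1 at 0.322. POU5F1 with LIN28A, at 0.307 in gene-rich cells, stood at -0.261 in gene-poor cells. By Pearson's r, POU5F1 and NANOG were the pair above 0.2 in each of the 3 sets of cells. By Spearman's rho the pair was at 0.145 in gene-rich cells, so this did not hold for both measures. SOX2, the DNA-binding partner of POU5F1, had an r with it of 0.138, -0.122 and -0.040 in all, gene-rich and gene-poor cells.

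**Figure D5:**
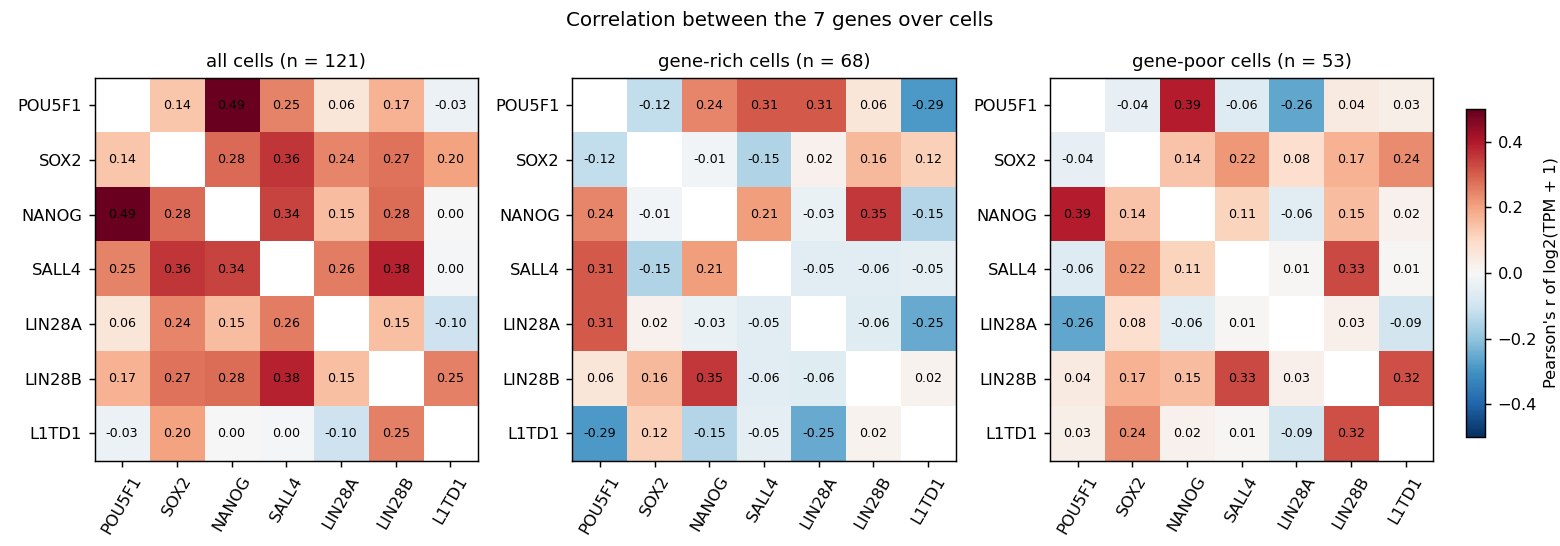
Each square gives Pearson's r of log2(TPM + 1) between the gene of its row and that of its column over all cells (left, n = 121), gene-rich cells (middle, n = 68) and gene-poor cells (right, n = 53), from blue for negative to red for positive values. Red squares prevail on the left, where the median is 0.245, and not in the middle, where it is -0.013, and POU5F1 with NANOG is at 0.493, 0.245 and 0.391.

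The genes whose pattern over all cells was most like that of each member, by Spearman's rho, were mostly not pluripotency factors. For POU5F1 they were YWHAZ, a 14-3-3 protein (0.614), RRM2, a ribonucleotide reductase subunit (0.604), and GPC4, a glypican (0.601). For NANOG they were the splicing factor SRSF1 (0.606), ESRG, a non-coding RNA abundant in hESCs (0.579), and TM9SF3 (0.568). For SOX2 the chaperonin subunit CCT4 led (0.432), for LIN28A the translation factor EIF4A2 (0.616), for LIN28B the respiratory subunit NDUFA5 (0.502), for SALL4 the enzyme PCK2 (0.570) and for L1TD1 the nuclear import receptor KPNB1 (0.509). In gene-rich cells YWHAZ (0.551) and KPNB1 (0.622) again led for POU5F1 and L1TD1, and the leading genes of the other 5 members changed, to HDGF for SOX2 (0.417), DCK for NANOG (0.475), RYBP for LIN28A (0.540), UBE2G1 for LIN28B (0.510) and DPAGT1 for SALL4 (0.444). No member was among the 3 nearest genes of another in either set.

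The wider pluripotency list had 21 genes, of which 18 had a row and 14 averaged 10 TPM or more. Of these, 13 were at least 2-fold higher in long than in short telomere cells, with a median difference of 1.83, beside 66.5% and 1.40 over all genes. The 13 included TERF1 (1.92), a telomere-binding protein gene whose level the paper relates to telomere length in these same cells. The secreted factor GDF3 (3.38), the Nodal co-receptor TDGF1 (3.09), the deubiquitinase USP44 (2.46) and the zinc finger factor ZFP42 (2.26) had larger differences than SALL4, and GDF3 was the one above NANOG. In gene-rich cells the differences of these 4 genes were 1.04, 0.36, -0.04 and -0.22. Outside that list, the hESC marker EPCAM (3.27) and the cell cycle genes CCNB2 (3.41) and CDK1 (3.26) were above NANOG too. Their differences in gene-rich cells were 0.29, -0.62 and -0.58. All 9 hESC markers passed the 2-fold mark over all cells, with a median of 1.95. The hypoxanthine salvage enzyme HPRT1 and the TATA-binding protein TBP, members of a list of 8 housekeeping genes, differed by 2.07 and 2.72, and 5 of the 8 passed the 2-fold mark with a median of 1.14, beside the same 66.5%.

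Along the let-7 route, the precursors themselves were hardly seen, since 4 of 11 let-7 hairpin rows were above 0, in 11 cells in all, in libraries that start from polyadenylated RNA. Of the 8 processing genes with a row, 4 averaged 10 TPM or more. ZCCHC11, the uridylyl transferase that LIN28A recruits to let-7 precursors, had a median of 14.88 TPM and a long minus short difference of 0.87. The nuclease DROSHA (median 11.78 TPM, difference 1.98), the export receptor XPO5 (15.04 TPM, 1.65) and the nuclease DICER1 (9.78 TPM, 1.83) were the 3 past the 2-fold mark, beside 66.5% of all genes. In gene-rich cells the differences were 0.15 for DROSHA, 0.08 for XPO5, -0.24 for DICER1 and -0.30 for ZCCHC11. The second transferase ZCCHC6 had a median of 0.74 TPM, and the nuclease DIS3L2 and DGCR8, the partner of DROSHA, had medians of 0 and 0.54 TPM.

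Of 16 known let-7 targets, 14 averaged 10 TPM or more, and 12 of these were at least 2-fold higher in long than in short telomere cells, with a median of 1.51, beside 66.5% and 1.40 over all genes. HMGA2, a chromatin protein whose UTR held 4 seed matches, had a median of 42.86 TPM and a difference of -0.05. IGF2BP1, an RNA-binding protein also with 4 matches, had a median of 34.17 TPM and a difference of 1.16, and TRIM71, a ubiquitin ligase with 6 matches, had 8.00 TPM and 1.55. HMGA1 was the most abundant target (387.9 TPM, difference 1.43, 1 match). In gene-rich cells the r of LIN28A with the 16 targets ran from -0.111 for IGF2BP2 and -0.104 for TRIM71 to 0.339 for CCND2 and 0.460 for NRAS. That of LIN28B ran from -0.141 for E2F2 and -0.0893 for MYCN to 0.266 for TRIM71 and 0.322 for CCND2. These ends of each range were chosen after the values were seen, and CCND2 held no seed match in its UTR.

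Rows of the POU5F1 copies were low, and some relatives of SALL4 and SOX2 were as high as these members. The processed copies POU5F1P3 and POU5F1P4 and the related gene POU5F1B had means of 0.51, 0.50 and 0.81 TPM, beside 1074 for POU5F1. The annotation names 11 pseudogenes of NANOG, 6 of POU5F1, 5 of SALL4 and 2 of LIN28A, and how reads shared with such copies were assigned is not given in the sources used here, so these 4 levels are uncertain by an unknown amount. SOX2, LIN28B and L1TD1 have none. Among the relatives, SALL2 (median 60.43 TPM) was above SALL4, with a difference of 2.08 between long and short telomere cells, and SOX4 (62.13 TPM) was close to SOX2, with a difference of -0.13. SOX3, the nearest relative of SOX2, had a median listed at 0 and passed TPM 1 in 51 cells.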

How the data were processed

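Single WA26 hESCs were picked by hand, their polyadenylated RNA was converted to cDNA by a Smart-seq2 protocol, and telomere length was measured by qPCR from the DNA of the same cell. The deposited table holds TPM values, rounded to 2 decimals, that the authors made from reads mapped to hg19. The methods name TopHat, HTSeq and a DESeq size factor function, and the submitters' processing notes name TopHat2 and RSEM, so the program that gave the values, and with it the length correction, is not settled. Counts scaled by 1 factor per cell would share steps, but the commonest value above 0 made up a median of 0.34% of a cell's values (highest 4.43%). The 5th percentile of values above 0 was 0.90 TPM in genes with transcripts of 600 to 1200 bases and 0.36 TPM at 4800 to 9600 bases, over the 92.3% of the 6213 genes with a length. The 121 columns sum to 979828 to 997050 over 25610 complete rows, none repeats another, and 1 incomplete last row was left out. Genes with symbols after ZFR were not analysed here. TPM keeps no depth, so no counting interval could be given. No doublet caller was run, since cells were picked singly.

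Groups follow the labels. T/R ratios were read from the paper's list of cells and used only for correlations and for ordering cells. Members, gene lists and the border of 8000 detected genes were chosen with earlier results of these data known. Detection was above TPM 1. Differences are of mean log2(TPM + 1), which understates the change of low genes, and were read beside the 6213 genes averaging 10 TPM or more. Correlations with the T/R ratio used TPM, and those between genes log2(TPM + 1). Cells of 1 line are not replicates, so no test was run. Named genes are the members, the listed genes, and the 3 genes of highest Spearman's rho with each member over all and over gene-rich cells. Other settings tried were a pseudocount of 0.1 or 10, a detection border of TPM 0 or 10, ratios of mean TPM, medians, Spearman's rho, other scales, partial correlation, rescaling over 602 genes, subsets of cells and another background. The calculations were checked on simulated data. Python 3.11.15 was used with numpy 2.4.6, pandas 2.3.3, scipy 1.17.1 and matplotlib 3.10.9.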

Additional observations from a re-analysis of the deposited data

How the results depend on the processing

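No paired analysis was possible because no result comes from a test and the numbers in the labels only count the cells of a group. Of 49 alternatives to the 6 summary values, 29 stayed within the limits used (0.1 for correlations, 0.5 on the log2 scale, 5 percentage points, 1.5 times for counts) and 20 did not; the cause was not tested. The number of the 7 genes detected in at least 90% of cells was between 4 and 7 under all its alternatives, and the share of all genes moved with it. It was 4 in gene-poor cells (17.9% of all genes) and 4 above TPM 10 (19.6%). It was 7 above TPM 0 (47.7%) and 7 in gene-rich cells (79.5%). The percentage of cells with all 7 genes detected, 72.7%, was 86.0% above TPM 0, 57.9% above TPM 10, 79.1% without the 11 cells of fewest detected genes, 98.5% in gene-rich and 39.6% in gene-poor cells. The median long minus short difference, 1.25, and below the 1.40 of all genes, was 0.69 with a pseudocount of 10 (all genes 0.60), 0.25 as a log2 ratio of mean TPM (all genes 0.49), 0.23 in gene-rich cells (all genes 0.04) and 0.61 between the 40 cells of highest and the 40 of lowest T/R ratio (all genes 0.46), so whether it lay above or below all genes depended on the setting. The number of the 7 genes past 2-fold in either direction, 4 beside 68.2% of all genes, was 1 with a pseudocount of 10 (24.2%), 2 by the ratio of mean TPM (41.2%), 2 after rescaling (55.6%), 0 in gene-rich cells (19.6%) and 2 between the 40 highest and 40 lowest (13.3%). The median correlation with the T/R ratio, 0.132, was -0.0194 after rescaling. The median correlation between the genes, 0.245, was 0.0866 on TPM without a logarithm, -0.0129 in gene-rich cells, 0.0434 in gene-poor cells, -0.00607 given the number of detected genes and 0.104 after rescaling. A change of sign was counted as a reversal only where the main value was at least 0.3 for a correlation or 1 on the log2 scale. Reversals by that rule were SALL4 between long and short cells (-0.52 in gene-rich cells), SOX2 with SALL4 (-0.152) and LIN28B with SALL4 (-0.0578) in gene-rich cells, and NANOG with SALL4 given detected genes (-0.00607). Smaller main values changed sign as well. Examples were L1TD1 (0.22 to -0.55) and LIN28A (0.29 to -0.47) between long and short cells after rescaling, and POU5F1 with LIN28A (0.060 to -0.261) in gene-poor cells. NANOG stayed higher in long than in short cells under every alternative run, from 0.69 in gene-rich cells to 3.78 with a pseudocount of 0.1, and its difference was 1.33 between the 40 highest and 40 lowest T/R ratios and 1.98 as a log2 ratio of mean TPM.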

Other observations

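Other rows of the table gave the following values. In gene-rich cells L1TD1 had an r of 0.412 with TERF1, which encodes a telomere-binding protein, and of 0.394 with SOX11 and 0.378 with PRDM14, while POU5F1 had an r of -0.391 with SOX11 and 0.339 with NODAL. NANOG had an r of 0.385 with DPPA4, 0.379 with CCND2 and 0.376 with NODAL, and LIN28A had an r of 0.420 with FGF2. EEF1A1, of the housekeeping list, had an r of 0.5529 with POU5F1, 0.5109 with LIN28A, 0.3999 with NANOG and -0.5966 with L1TD1. Each was larger in size than the values given here for that member, so values of this size were not limited to pluripotency or telomere genes. With SOX2, LIN28B and SALL4 its r was between -0.0004218 and 0.1641. These are descriptions over 68 cells of 1 line, chosen after their values were seen, and no test was run on them.

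L1TD1 was the member whose level followed the number of detected genes least. Its mean log2(TPM + 1) was 8.32 in gene-rich and 8.32 in gene-poor cells, whereas SALL4 had 4.67 and 2.31, and the median difference over all genes was 1.45.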
